A study of Mus musculus with 12 samples.

Results

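The genes described here are the 7 mammalian sirtuins (Sirt1 to Sirt7) and 3 enzymes that make or use NAD (Nampt, Nmnat1 and Parp1), in mouse liver on 4 diets. The members were all probes whose accession is that of 1 of these genes, which gave 13 of the 39429 probes on the array and 10 of 20886 named genes. Sirt4, Sirt6 and Sirt7 each had 2 probes and the other members 1 each. The rule itself uses no measured value, but the genes were picked with earlier results of these data known.

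Liver RNA came from 12 female C57BL/6N mice, 3 on each diet for 6 months, bought at 6 weeks of age and kept for 2 weeks before the diets began. Every mouse had the same base diet, called NFD in the labels. Ctrl mice received it with corn starch and sucrose as the carbohydrate, and RS mice had resveratrol added to that diet. In DJ mice Dongjin rice stood in for the starch and sucrose, and in DJ526 mice the rice was DJ526, a transgenic line of Dongjin that makes resveratrol through a peanut stilbene synthase gene. DJ526 and DJ thus differ in the transferred gene as well as in resveratrol. Mice were housed 10 to a cage. The methods say that cages were assigned to the diets at random, and also that mice were divided at random after acclimation. Cage was not part of the fit, so that cage and diet cannot be told apart here. The mice were separate animals, and each was measured once on a one-colour Agilent array, so that 3 arrays per diet limit the precision.

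Sirtuins remove acetyl and other acyl groups from proteins and consume NAD as they do so, releasing nicotinamide. The liver rebuilds NAD from nicotinamide through Nampt, the rate-limiting enzyme of this salvage pathway, and then an adenylyltransferase such as Nmnat1, the nuclear one. It also makes NAD from tryptophan and nicotinic acid. Parp1 spends NAD on poly-ADP-ribose at DNA breaks. Resveratrol is best known as a compound reported to act through Sirt1, and Nampt is known as a gene under circadian control. Transcript levels say nothing of enzyme activity or of NAD itself, neither of which was analysed here.

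Levels are log2 signals relative to the 75th percentile of the same array, so that 0 is the level of that percentile, and differences of 2 diets are log2 fold changes of 1 probe. Probes are not compared with each other in level. All 13 probes were well above background on all 12 arrays, and none had a saturated spot. Between 73.0% and 80.8% of spots on an array were well above background. The arrays lay on 3 slides, with slide 1 holding all Ctrl mice and DJ replicate 1, slide 2 holding DJ replicates 2 and 3 with RS replicates 1 and 2, and slide 3 holding RS replicate 3 with all DJ526 mice. In a supplementary sample table of the study, the array identifiers of RS and of DJ are swapped relative to the labels, although its assay names go with the labels. The labels were followed, and values with RS and DJ exchanged are given where they differ.

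The letters just before the transcription start are shown for Nampt and Nmrk1, which had their lowest levels in the same mice, and for Sirt1, which holds the E-box sought. They cover the 250 bases before the start in RefSeq (build GRCm38.p6), read 5′ to 3′ in the direction of transcription. Capitals mark CACGTG, the E-box that the clock factors CLOCK and BMAL1 among others can bind. It reads the same on both strands.

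Nampt (chr12:32820085-32820334, + strand): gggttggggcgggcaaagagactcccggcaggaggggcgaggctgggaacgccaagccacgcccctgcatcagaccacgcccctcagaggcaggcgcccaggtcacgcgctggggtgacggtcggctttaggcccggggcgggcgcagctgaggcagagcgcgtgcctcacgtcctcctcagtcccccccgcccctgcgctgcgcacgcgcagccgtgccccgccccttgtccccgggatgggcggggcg

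Nmrk1 (chr19:18631766-18632015, + strand): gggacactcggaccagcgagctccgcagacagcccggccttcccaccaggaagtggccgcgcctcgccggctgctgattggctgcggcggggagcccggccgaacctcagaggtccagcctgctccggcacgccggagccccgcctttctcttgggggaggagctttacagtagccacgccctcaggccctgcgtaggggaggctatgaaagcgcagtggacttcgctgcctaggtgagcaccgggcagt

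Sirt1 (chr10:63339036-63339285, - strand): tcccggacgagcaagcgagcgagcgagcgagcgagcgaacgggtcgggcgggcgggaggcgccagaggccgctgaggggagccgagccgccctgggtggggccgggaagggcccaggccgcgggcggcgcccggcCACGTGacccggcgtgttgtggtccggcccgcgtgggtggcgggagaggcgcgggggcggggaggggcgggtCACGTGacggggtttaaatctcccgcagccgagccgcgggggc

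CACGTG stood at 2 places before Sirt1, beginning 115 and 43 bases from the start, and at 1 place before Parp1, 49 bases from it. The windows of the other 8 members, and that of Nmrk1, did not hold these letters. Over all 32851 such windows of the mouse, 6.02% held CACGTG. The related CACGTT, sought on both strands and unable to overlap a CACGTG, was in 3.85% of all windows and in none of the members' windows. Sites further from the start were not searched.

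None of the 13 probes passed the test in any comparison. limma with Benjamini-Hochberg adjustment over 39429 probes called 0 members at an adjusted p under 0.05 for RS, DJ or DJ526 against Ctrl, against 0%, 0% and 0.00507% of all probes. It also called 0 members for DJ526 against DJ (0.0101% of all probes) and DJ526 against RS (0.00761%). For resveratrol diets against diets without, rice diets against starch and sucrose diets and the difference between the resveratrol effects on both bases, it called 0 members and 0% of all probes. A test of any difference among the 4 diets called 0 members and 0.00507% of all probes. The member nearest to the threshold was Nampt in DJ526 against DJ, with an adjusted p of 0.235 from limma.

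At an unadjusted p under 0.05 from limma, between 0 and 3 of the 13 probes stood out in a comparison. RS against Ctrl had 0 of 13 (6.00% of all probes), DJ against Ctrl 2 (5.22%), DJ526 against Ctrl 1 (10.8%), DJ526 against DJ 3 (9.81%) and DJ526 against RS 0 (5.50%). The resveratrol diets together had 2 of 13 (10.1%), the rice diets together 1 (4.57%) and the difference between the resveratrol effects 1 (6.09%). Any difference among the diets had 2 (7.70%), the probe of Nampt and the dimmer probe of Sirt6. Groups of 3 mice that did not overlap were found for 2 members in RS against Ctrl (10.2% of all probes), 2 in DJ against Ctrl (9.34%), 3 in DJ526 against Ctrl (20.6%), 3 in DJ526 against DJ (18.4%) and 2 in DJ526 against RS (11.1%).

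**Figure D1:**
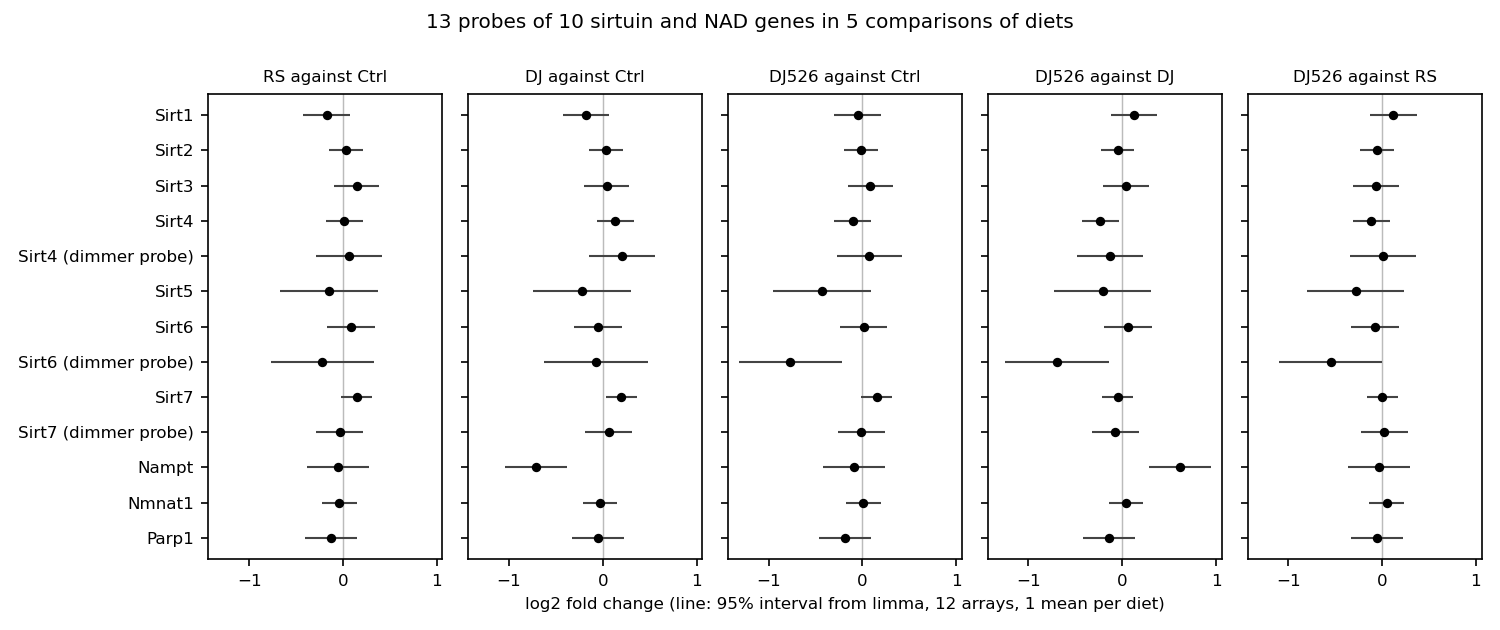
Log2 fold changes of the 13 probes (rows) in 5 comparisons of 2 diets (panels), with lines for the 95% interval from limma on 12 arrays. The intervals of Nampt in DJ against Ctrl (-1.04 to -0.38) and in DJ526 against DJ (0.29 to 0.95) lie farthest from 0 among the leading probes.

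The median of the 13 log2 fold changes was -0.04 in RS against Ctrl, -0.03 in DJ against Ctrl and -0.02 in DJ526 against Ctrl, beside 0.03, -0.02 and 0.02 over all probes. In DJ526 against DJ it was -0.05, beside 0.04 over all probes. The median standard deviation of the members within a diet was 0.139, against 0.191 for the 27330 probes well above background on all arrays (quartiles 0.125 and 0.298). The 10 leading probes did not move as a block, with Pearson r between pairs of members running from -0.64 to 0.67 with a median of -0.04 over the 12 arrays (45 pairs).

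**Figure D2:**
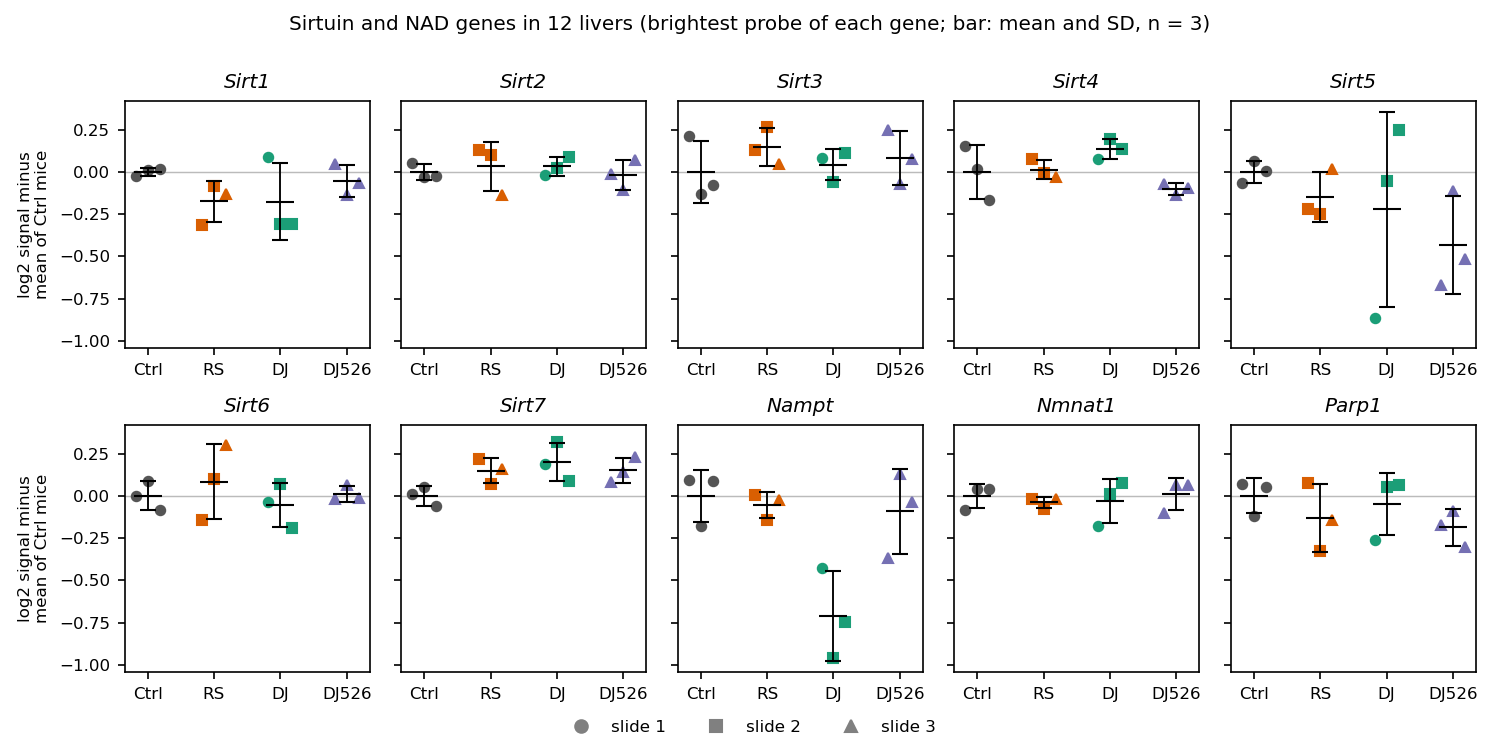
Log2 signal of the brightest probe of each member in every mouse, less the mean of the Ctrl mice, by diet, with bars for mean and standard deviation (n = 3) and point shapes for the slide. The 3 DJ mice lie below all Ctrl, RS and DJ526 mice for Nampt, DJ replicate 1 stands low for Sirt5, and the diets overlap for most other members.

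Nampt had the largest difference between diets among the leading probes. Its log2 signal was 2.11, 1.83 and 2.10 in the Ctrl mice and 2.01, 1.87 and 1.99 in the RS mice. It was 1.59, 1.06 and 1.26 in the DJ mice and 1.65, 2.14 and 1.97 in the DJ526 mice. All 3 DJ mice were thus below the other 9 mice, although DJ replicate 1 and DJ526 replicate 1 lay close together. By diet the means were 2.01 ± 0.155 (SD, n = 3) in Ctrl, 1.96 ± 0.0767 in RS, 1.92 ± 0.251 in DJ526 and 1.30 ± 0.268 in DJ. The first 3 of these overlapped one another.

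Against Ctrl, Nampt in DJ had a log2 fold change of -0.71 (standard error 0.150, 95% interval -1.04 to -0.38), which is 0.612 of the Ctrl level on the linear scale. Its p was 0.000626 in limma, rank 29 of 39429 probes, and its adjusted p 0.650. The exact two-sided permutation test gave p = 0.1, the smallest that 3 mice against 3 allow. DJ526 against DJ gave 0.62 (95% interval 0.29 to 0.95, adjusted p = 0.235 from limma). The intervals of the other comparisons of 2 diets took in 0, namely RS against Ctrl (-0.06, interval -0.39 to 0.28), DJ526 against Ctrl (-0.09, interval -0.42 to 0.24) and DJ526 against RS (-0.04, interval -0.37 to 0.29). Rice diets against starch and sucrose diets gave -0.37 (interval -0.61 to -0.14, adjusted p = 0.975 from limma). Resveratrol diets against diets without gave 0.28 (interval 0.05 to 0.51, adjusted p = 0.430 from limma). Both of these averages include the DJ mice. The difference between the resveratrol effects on rice and on starch and sucrose was 0.67 (interval 0.21 to 1.14, adjusted p = 0.672 from limma). In a homogenate of bulk tissue, fewer cells of a type and less RNA per cell cannot be told apart.

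The lower level of Nampt in DJ was seen on both slides that held DJ mice. On slide 1, DJ replicate 1 differed from the mean of the Ctrl mice by -0.42. On slide 2, DJ replicates 2 and 3 had a mean that differed from that of RS replicates 1 and 2 by -0.78. On slide 3, the DJ526 mice differed from RS replicate 3 by -0.07. With slide as a fixed block, DJ against Ctrl was -0.42 and DJ526 against DJ 0.72. These are not separate evidence. The first repeats the slide 1 difference, since all Ctrl mice lay there, and rests on DJ replicate 1. The second joins the differences of slides 2 and 3 and rests on RS replicate 3 for slide 3. Leaving out 1 mouse at a time gave -0.85 to -0.59 for DJ against Ctrl, with the smallest adjusted p, 0.194 from limma, without DJ replicate 1. With RS and DJ exchanged, RS against Ctrl took the value -0.71 and DJ against Ctrl became -0.06, so that which diet held the low mice rests on the labels.

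Nmrk1, the kinase that feeds nicotinamide riboside into the same salvage pathway, was low in the same 3 mice. Its log2 signal was 0.58, 0.05 and 0.74 in Ctrl, 0.39, 0.83 and 0.54 in RS, -0.26, -0.66 and -0.30 in DJ, and 0.00, 0.45 and 0.37 in DJ526. No DJ mouse reached the lowest mouse of another diet. DJ against Ctrl was -0.87 (95% interval -1.30 to -0.44, adjusted p = 0.650 from limma) and DJ526 against DJ 0.68 (interval 0.25 to 1.11, adjusted p = 0.331 from limma).

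Per2, a repressor of the circadian clock, had the third smallest p of all probes in DJ against Ctrl. Its log2 signal was -1.41, -1.60 and -1.67 in DJ and between -1.19 and -0.37 in the other 9 mice. The DJ mice did not overlap any other diet. The log2 fold change was -1.03 (95% interval -1.40 to -0.66, adjusted p = 0.650 from limma), and DJ526 against DJ was 0.79 (interval 0.42 to 1.16, adjusted p = 0.179 from limma). With RS and DJ exchanged, DJ against Ctrl became 0.13 for Nmrk1 and 0.01 for Per2.

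**Figure D3:**
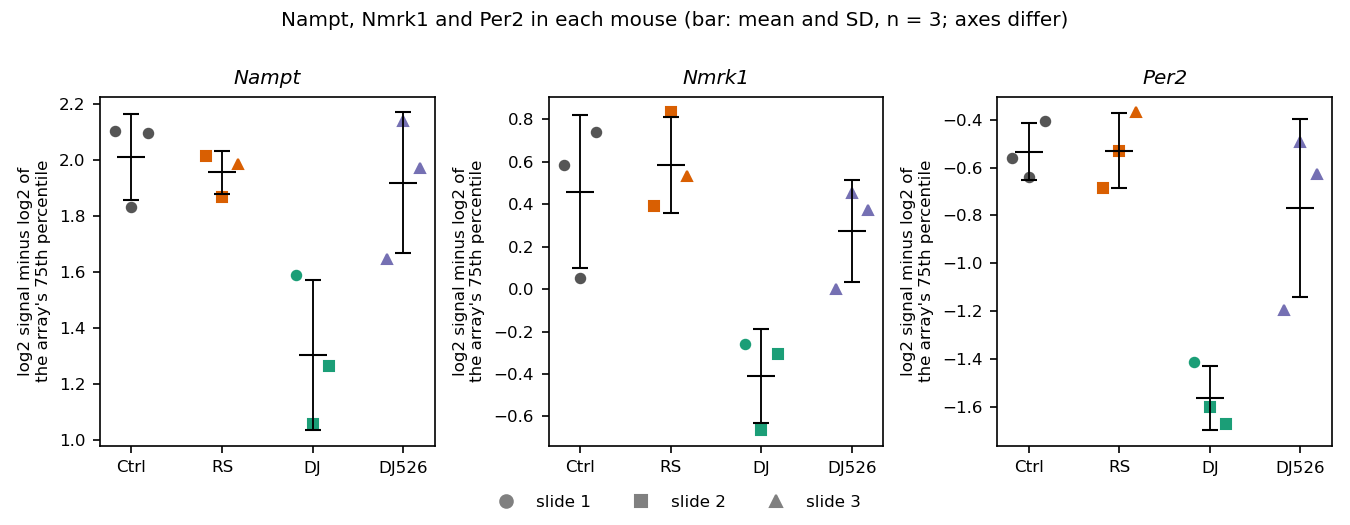
Log2 signal of Nampt, Nmrk1 and Per2 in each mouse by diet (separate axes), with bars for mean and standard deviation (n = 3) and point shapes for the slide. In each panel the 3 DJ mice lie below the other 9, and DJ526 replicate 1 is the lowest of the DJ526 mice.

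Over the 12 arrays, the genes most like Nampt by Pearson r were Anxa11 (0.947), Per2 (0.932) and Nfic (0.916), among 20293 probes of other named genes that were well above background on all arrays. Nmrk1 had r = 0.896 (Spearman rho 0.790) and Per2 a rho of 0.797. Without DJ replicates 2 and 3, the mice farthest from the Nampt median, r was 0.872 for Per2 and 0.765 for Nmrk1, and over the 9 mice not on DJ it was 0.780 and 0.609. These points share arrays and tissue. Over all arrays each of the other 16 clock genes had a lower r with Nampt, the lowest being -0.62 for Clock. Cry2, another repressor of the clock, had 0.58 there but was above Per2 in both smaller sets, with 0.924 without DJ replicates 2 and 3 and 0.873 over the 9 mice not on DJ.

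Few other clock genes had a low p. Of the 20 probes of 17 clock genes, 0 were called. In DJ against Ctrl, 3 had an unadjusted p under 0.05 from limma (5.22% of all probes), that of Per2 among them. All 3 had lower signal in DJ. The median log2 fold change of the 20 probes was -0.10. Dbp and Nr1d1 swing widely over the day. Their standard deviations within diets, pooled over the 4 diets, were 1.01 and 1.03, against spans of 0.585 and 0.996 between diet means. Ctrl replicate 2 had the lowest Dbp (2.32, with the other mice at 3.40 to 5.51) and the lowest Nr1d1 (-3.96, with the others at -3.13 to -0.51). Bmal1, the activator of the clock, was measured on 11 arrays and was highest in this mouse, at 0.50. Ctrl replicate 2 was also the lowest Ctrl mouse for Nampt, and without it Nampt in DJ against Ctrl was -0.80. The hour at which livers were taken is not given in the sources used here, and its part in the Nampt result was not tested.

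Sirt1, the nuclear deacetylase of p53, FOXO factors and PGC-1, had log2 signals of 0.17, 0.20 and 0.21 in Ctrl, -0.12, 0.11 and 0.06 in RS, 0.28, -0.11 and -0.12 in DJ, and 0.24, 0.05 and 0.13 in DJ526. The Ctrl mice were close together (SD 0.0219, n = 3) and above all 3 RS mice, while DJ replicate 1 was the highest of all. RS against Ctrl was -0.17 (95% interval -0.42 to 0.07, adjusted p = 0.928 from limma). DJ against Ctrl was -0.18 (interval -0.42 to 0.07) and DJ526 against Ctrl -0.05 (interval -0.30 to 0.20). The outer limits of these 3 intervals, from the fit without slide, were -0.42 and 0.20. With slide as a fixed block the 3 differences turned to 0.20, 0.09 and 0.28, so that no direction is given for Sirt1.

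Sirt6, which acts on histone H3 at promoters of glycolytic genes and in DNA repair, gave different readings on its 2 probes. The brighter probe ran from -1.11 to -0.62 over the 12 mice and differed by 0.01 between DJ526 and Ctrl (95% interval -0.24 to 0.27). The dimmer one read -3.63, -3.65 and -4.04 in Ctrl, -3.89, -3.62 and -4.47 in RS, -3.49, -3.76 and -4.28 in DJ, and -4.49, -4.58 and -4.55 in DJ526. On this probe all DJ526 mice were below all others, with RS replicate 3, the other mouse on slide 3, next to them. DJ526 against Ctrl was -0.77 on it (interval -1.32 to -0.22, adjusted p = 0.310 from limma) and DJ526 against DJ -0.70 (adjusted p = 0.437 from limma). On slide 3 alone the DJ526 mice differed from RS replicate 3 by -0.07, and with slide as a fixed block the differences were 0.48 and 0.19. Among the 224 probes of like signal that lay close by on the array, the median of DJ526 against Ctrl was -0.14, against 0.09 over all 6236 probes of like signal. The part of slide or of position on the array in the reading of the dimmer probe was not tested.

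Sirt7, the nucleolar sirtuin tied to RNA polymerase I, read 3.24, 3.29 and 3.17 in Ctrl and 3.45, 3.30 and 3.39 in RS on its brighter probe. It read 3.42, 3.55 and 3.32 in DJ and 3.31, 3.37 and 3.46 in DJ526. Every mouse on the other 3 diets was above every Ctrl mouse, the nearest being RS replicate 2 and Ctrl replicate 2. DJ had the widest difference from Ctrl, a log2 fold change of 0.20 (95% interval 0.03 to 0.36, adjusted p = 0.913 from limma), and RS and DJ526 each had 0.15. These 3 comparisons share the Ctrl mice. The dimmer probe did not show this, with -0.04, 0.06 and -0.01.

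Sirt2, the mainly cytoplasmic sirtuin that deacetylates tubulin, ran from 1.52 to 1.79 over the 12 mice. Its 4 diet means lay within 0.0498 of one another, or 0.17 and 0.18 with normexp and with the median pixel without background subtraction, and the interval of DJ526 against Ctrl was -0.20 to 0.16.

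Of the mitochondrial sirtuins, Sirt3, the main deacetylase there, ran from 4.66 to 5.05. Its largest difference between diets was RS against Ctrl, 0.15 (95% interval -0.09 to 0.39, adjusted p = 0.941 from limma). Sirt4, which restrains glutamate dehydrogenase, read -0.56, -0.44 and -0.50 in DJ and -0.71, -0.77 and -0.73 in DJ526 on its brighter probe. These groups did not overlap, and their difference was -0.24 (interval -0.43 to -0.04, adjusted p = 0.460 from limma). The Ctrl mice, at -0.48, -0.62 and -0.80, spanned both. The dimmer probe of Sirt4 gave -0.13 (interval -0.48 to 0.22).

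Sirt5, which removes succinyl and malonyl groups and acts on the urea cycle enzyme Cps1, varied most between mice of 1 diet (standard deviation 0.331). It read 1.85, 1.98 and 1.92 in Ctrl, 1.70, 1.67 and 1.94 in RS, 1.06, 1.87 and 2.17 in DJ, and 1.25, 1.81 and 1.40 in DJ526. DJ held both the lowest and the highest mouse, and the DJ526 mice were all below the Ctrl mice. DJ526 against Ctrl was -0.43 (95% interval -0.95 to 0.09, adjusted p = 0.539 from limma), and -1.65 with slide as a fixed block, where these diets share no slide. Signals of 5 lymphocyte markers (Cd3e, Cd3g, Cd79a, Cd79b and Ms4a1, all well above background on all arrays) were summed before taking log2. This sum was highest in the 2 mice with the lowest Sirt5, at 3.09 in DJ replicate 1 and 2.84 in DJ526 replicate 1. Of the marker lists, this one had the strongest Pearson r with Sirt5 (-0.84) and was named after its values were seen. DJ526 replicate 3, with the next lowest Sirt5 (1.40), had a sum of 1.64. That sum ran from 1.32 to 1.79 in Ctrl, 1.33 to 2.12 in RS, 1.53 to 3.09 in DJ and 1.64 to 2.84 in DJ526. Its part in the Sirt5 values was not tested.

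Nmnat1, which turns nicotinamide mononucleotide into NAD in the nucleus, ran from 0.33 to 0.58 over the 12 mice. The 4 diet means were within 0.0479 of one another, and no 95% interval of a comparison of 2 diets went beyond -0.22 or 0.23. Parp1 ran from -0.97 to -0.56. Its diet means were -0.64 ± 0.104 (SD, n = 3) in Ctrl, -0.69 ± 0.186 in DJ, -0.77 ± 0.203 in RS and -0.83 ± 0.109 in DJ526, each overlapping the next. DJ526 against Ctrl was -0.19 (interval -0.47 to 0.09, adjusted p = 0.618 from limma).

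The genes around the members did not pass the test either. Of the NAD synthesis list, 21 of 22 genes were measured by 27 probes, of which 0 were called in any comparison. At an unadjusted p under 0.05 from limma, there were 2 of the 27 probes in RS against Ctrl (Afmid higher and Nadsyn1 lower, against 6.00% of all probes), 2 in DJ against Ctrl (Nadsyn1 and Nmrk1, both lower, against 5.22%) and 3 in DJ526 against Ctrl (1 higher and 2 lower, against 10.8%). Nadsyn1, NAD synthetase, read 2.37, 2.27 and 2.41 in Ctrl, 2.20, 2.10 and 2.11 in RS, 1.97, 2.20 and 2.25 in DJ, and 2.16, 2.29 and 2.15 in DJ526. RS and DJ lay below Ctrl without overlap, by log2 differences of -0.21 each (adjusted p = 0.754 and 0.926 from limma). Of the tryptophan route, Tdo2, Kmo, Haao and Qprt, and of the nicotinic acid route Naprt, had diet means that lay within 0.284 of one another for every probe, and Nmnat3, the mitochondrial adenylyltransferase, within 0.173. Of the other genes of the tryptophan route, Afmid and Acmsd, chosen after their values were seen, had larger log2 fold changes. Afmid had 0.41 in RS against Ctrl. Acmsd, which diverts the route away from NAD, had -0.51 in DJ against Ctrl and 0.75 in DJ526 against DJ. Neither value of Acmsd reached an unadjusted p under 0.05 from limma.

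Of 34 probes of the 26 genes for NAD use and clearance, 0 were called. Against Ctrl, their median log2 fold change was 0.05 for RS, 0.04 for DJ and -0.01 for DJ526. Cd38, the ecto-enzyme that degrades NAD, ran from -0.40 to 0.22 with the lowest and the second highest mouse both in DJ. Nnmt, which methylates nicotinamide for disposal, had means of 2.70 ± 0.273 (SD, n = 3) in Ctrl and 2.97 ± 0.163 in DJ, with overlapping mice. Parp2, Parp14 and Parg, the glycohydrolase that undoes the work of Parp1, had spans of 0.187, 0.217 and 0.154 between diet means, and Aox1, an aldehyde oxidase that acts on methylated nicotinamide, 0.114. In DJ526 against DJ, 4 of the 34 probes had an unadjusted p under 0.05 from limma (9.81% of all probes), all with lower signal in DJ526. These were probes of Parp3 (-0.32), Parp6 (-0.63), Adprh (-0.26) and Adprhl2 (-0.31), named after their values were seen, and the other Parp6 probe gave -0.02. In DJ against Ctrl there was 1 of the 34 probes (5.22% of all probes), from Parp16, whose 2 probes gave -0.37 and -0.41.

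Genes listed as sirtuin regulators were measured by 16 probes of 12 genes, with 0 called and medians of 0.06, 0.03 and 0.08 in RS, DJ and DJ526 against Ctrl. Ccar2, an inhibitor that binds Sirt1, and Rps19bp1, an activator, had diet means within 0.202 and 0.199 of one another. Substrates and targets of sirtuins were measured by 36 probes of 26 genes, with 0 called and medians of -0.01, -0.01 and 0.00. In DJ526 against DJ, 2 of these 36 probes had an unadjusted p under 0.05, against 9.81% of all probes.

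**Figure D4:**
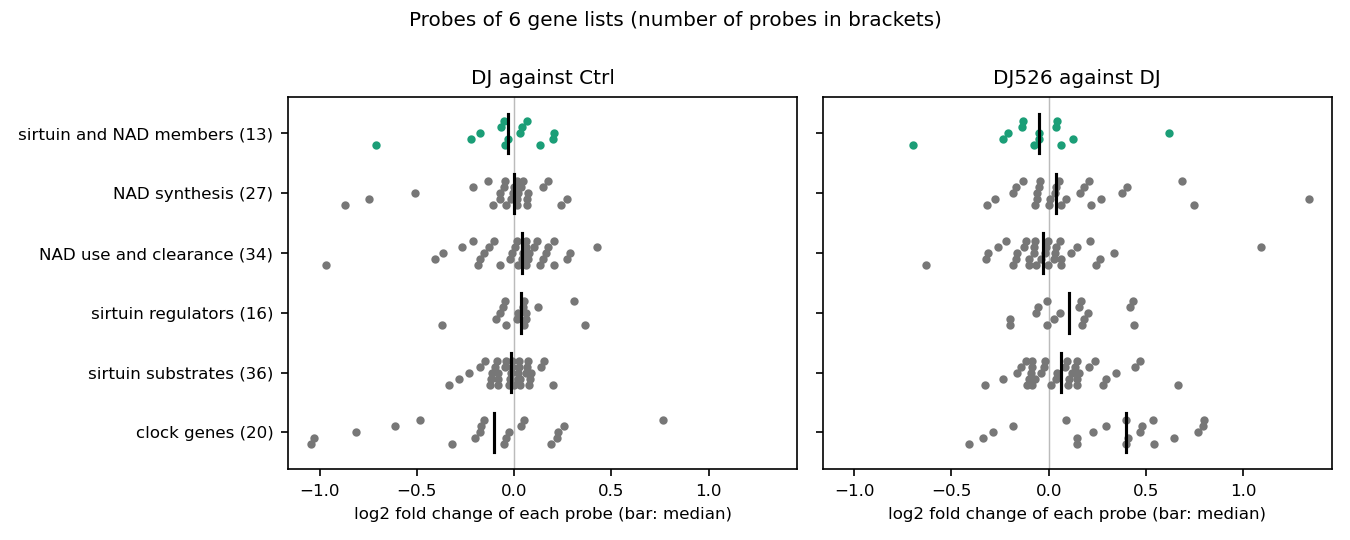
Log2 fold changes of the probes of 6 gene lists (rows) in DJ against Ctrl and in DJ526 against DJ, 1 point per probe, with a bar for the median of the list. The members have medians of -0.03 and -0.05, with Nampt apart at -0.71 and 0.62 and the dimmer Sirt6 probe at -0.70 in DJ526 against DJ, and the median of the clock genes is -0.10 and 0.40.

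The tissue label was checked against its markers. All 7 hepatocyte markers were well above background on all arrays, and the log2 of their summed signal was 10.6 to 10.9. None of 3 adipocyte markers and 1 of 3 each for skeletal muscle and pancreas were well above background on all arrays, and 0 markers of any list were called. The log2 of the summed adipocyte signal differed widely between mice. It ran from -4.79 to 0.12 in Ctrl, -5.45 to -0.78 in RS, -4.20 to -0.79 in DJ and -5.41 to -4.80 in DJ526. The part of this signal in the members' values was not tested.

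The genes most like each of the other members over the 12 arrays differed from member to member. Sirt5 had the closest, Mettl15 (r = 0.972), Olfml1 (0.965) and Tbc1d19 (0.954), followed by Nmnat1 with Uchl4 (0.962), Trappc13 and Fam53b. Sirt4 was most like Smarce1 (0.948), Tmem53 and Fam83h, and Parp1 like Ddx39b (0.946) and Ap1b1. Sirt2 was most like Nucb1 (0.914), Ctdnep1 and Zcchc24, Sirt3 like Fbf1 (0.914), Pofut2 and Dpys, and Sirt1 like Alkbh4 (0.903), Abhd17b and Tent4b. Sirt6 had Rbm5 (0.899), Pla2g2f and Tekt2, and Sirt7 had Gab3 (0.897), Wdr45b and Tomm7. Each of these is among the highest of about 20293 values of r for a member over 12 shared arrays.

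No alternative gave a call of a member. Over 28 alternatives (27 for the contrasts that need all 4 diets), 0 of 13 probes were called in any comparison. The smallest adjusted p of a member was 0.0953 from limma, for Nampt in DJ526 against DJ without DJ replicate 1.

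**Figure D5:**
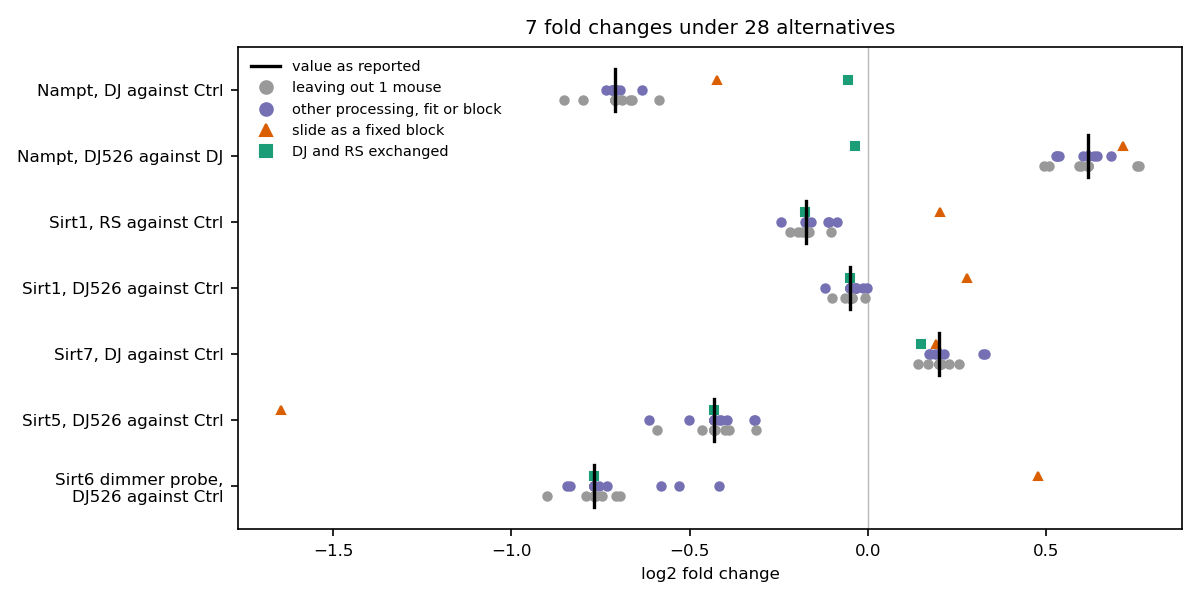
Log2 fold change of 7 results under 28 alternatives, with a black bar for the value as reported and points for leaving out 1 mouse, slide as a fixed block, RS and DJ exchanged, and all others. The values of Nampt leave their cluster under the exchange (-0.06 and -0.04), and those of Sirt1 and of the dimmer Sirt6 probe cross 0 with slide as a fixed block.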

How the data were processed

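Liver RNA of 12 mice was hybridised singly in 1 colour. The authors deposited the signal intensity of every spot as Feature Extraction 11.5.1.1 gives it, background-subtracted on a linear scale, and a table normalized globally, which holds that intensity times a factor for each array (0.959 to 1.08). Flags for outlier spots, saturation and signal well above background were also taken as deposited, and the header names an older genome build (mm9) than the sequence tables.

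Non-outlier spots of a probe were averaged, put on the log2 scale and set to the 75th percentile of the array. Names came from matching accessions to RefSeq, which gave a symbol to 27508 probes. limma 3.58.1 (R 4.3.3) was fitted with a mean per diet and an empirical Bayes trend, with Benjamini-Hochberg adjustment over all probes, and was tested on simulated data. A gene with several probes was led by its brightest. Members and 5 lists of related genes were chosen with earlier results of these data known. Beyond the members, 20 genes were named whatever their values, together with the 3 genes most like a member, while Clock, Cry2 and other list genes were chosen after their values were seen, and some items that these rules would name are not reported here. The alternatives were other background corrections, scalings, filters and variance models, the methods' unpaired test, the deposited table, blocks for slide and replicate number, the exchange of RS and DJ, and each mouse left out. SAM was not run. Figures used matplotlib 3.10.9 (Python 3.11.15).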

Additional observations from a re-analysis of the deposited data

How the results depend on the processing

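Calls of the members did not depend on the processing, since 0 of 13 were called in all 9 tests under all alternatives, leave-one-out fits included. Directions did. With RS and DJ exchanged, Nampt became -0.037 in DJ526 against DJ, 0.62 in DJ526 against RS, 0.28 in rice against starch and sucrose diets and -0.37 in resveratrol diets against diets without, Nmrk1 became 0.13 in DJ against Ctrl and -0.31 in DJ526 against DJ, and Per2 0.0055 and -0.24. With slide as a fixed block, Nampt became 0.36 in RS and 0.29 in DJ526 against Ctrl, Sirt1 0.20, 0.089 and 0.28 in RS, DJ and DJ526 against Ctrl, and the dimmer Sirt6 probe 0.48 against Ctrl and 0.19 against DJ. With slide as a random block, Nampt in RS against Ctrl was 0.038. Leaving out 1 mouse gave Nampt values of -0.20 to 0.045 in DJ526 against Ctrl and -0.15 to 0.10 against RS, the highest of each without DJ526 replicate 1. The reversals under the exchange follow from giving the same arrays the other name. With slide as a fixed block, Ctrl is tied to the other diets only through DJ replicate 1. In the same fit DJ526 is tied to them only through RS replicate 3, so these differences rest on single mice. The cause of the reversals with slide as a block or without 1 mouse was not tested. The span of diet means moved to 0.17 (normexp) and 0.18 (median pixel) for Sirt2, to 0.32 and 0.35 for Sirt7 and, under normexp, to 0.42 for the dimmer Sirt6 probe.

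Samples with the same replicate number did not steadily deviate together (r of -0.35 to 0.41 over 18 pairs). The median r was 0.033 for the same number and -0.0061 for different numbers, and 6 of 12 arrays were closest to one of their own number. This check does not settle whether the numbers pair the mice, and the main fit treated them as unpaired. The replicate block left 0 members called, with Nampt in DJ against Ctrl at -0.71 (adjusted p = 0.700 from limma). Over all probes, calls ranged from 0 to 4 in RS, 0 to 8 in DJ and 0 to 173 in DJ526 against Ctrl, 0 to 107 in DJ526 against DJ and 0 to 40 in DJ526 against RS, the counts of 173 and 107 arising without RS replicate 3. They ranged from 0 to 2 for the resveratrol diets, 0 to 3 for the rice diets, 0 to 19 for the difference between the resveratrol effects and 0 to 51 for any difference among the diets. With 3 mice per diet a p that misses the threshold does not show that a member kept its level.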
